A study of Mus musculus with 3 samples.

Results

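Pf4-high cells were cells of the Mesp1 lineage with a large amount of RNA for Pf4, the platelet factor 4 chemokine stored in platelet granules, and little globin RNA. The rule took every cell with at least 20 Pf4 transcripts per 10000 transcripts, counted as unique molecular identifiers (UMIs), in which the 5 globin genes Hbb-y, Hbb-bh1, Hba-x, Hba-a1 and Hba-a2 made under 10% of UMIs. It found 50 of 14777 cells. The cells came from C57BL/6 mouse embryos that carried Mesp1-Cre, the tdTomato reporter Ai9 and a floxed Wls gene, and tdTomato-positive cells had been sorted from dissociated embryos. Control embryos were Wls fl/+ and mutant embryos were Wls fl/fl, so the controls also carried the Cre, the reporter and 1 floxed allele. Wls encodes Wntless, which carries Wnt proteins to the cell surface, and Mesp1-Cre acts in early mesoderm, which gives rise to heart, vessels and part of the blood. Embryonic stages were E7.5, E8.0, E8.5 and E9.5.

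Megakaryocytes are the cells that make platelets. They share a precursor and a core set of transcription factors (GATA1, TAL1, NFE2 and partners) with red cells, and take on FLI1 and RUNX1 as they diverge. In the mouse embryo the earliest of them arise in the yolk sac beside primitive red cells and the earliest macrophages.

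A MULTI-seq lipid barcode marked each embryo or group of embryos, and cells that shared a run, barcode, stage and genotype were treated as 1 sample. There were 22 such samples over 3 runs, 12 control and 10 mutant. The labels do not say whether a barcode held 1 embryo or more, so the p-values measure only the spread between these samples, which may be in part technical. Samples held 134457 to 61307782 UMIs, with a median of 9759.5 to 29940.0 per cell, lowest in run 3. The Pf4-high cells had a median of 19087 UMIs and 4492 genes, against 21757 UMIs and 5074 genes in the other cells. Of all cells, 46 shared a cell barcode with a cell of another run. That number included 1 Pf4-high cell, whose partner had no Pf4 UMI. A doublet caller, Scrublet, marked 79 cells (0.535%), and none of the 50 was among them.

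The rule fell in a wide gap. The lowest members held 32.1 and 50.5 Pf4 UMIs per 10000, the median 222 and the highest 766. Just outside, the highest cells held 13.7 and 13.4, and 11 cells in all lay between 5 and 20. Of the remaining cells 760 had a Pf4 UMI below 5 per 10000 and 13956 had none. The 50 cells held 95.7% of all Pf4 UMIs in the data. No cell with 20 or more was removed by the globin limit. Globin made 0.0929% to 5.69% of UMIs in the members (median 0.407%), and 4 of them were above 2%. The cells were chosen by these values of Pf4 and globin, which are given as a description.

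**Figure D1:**
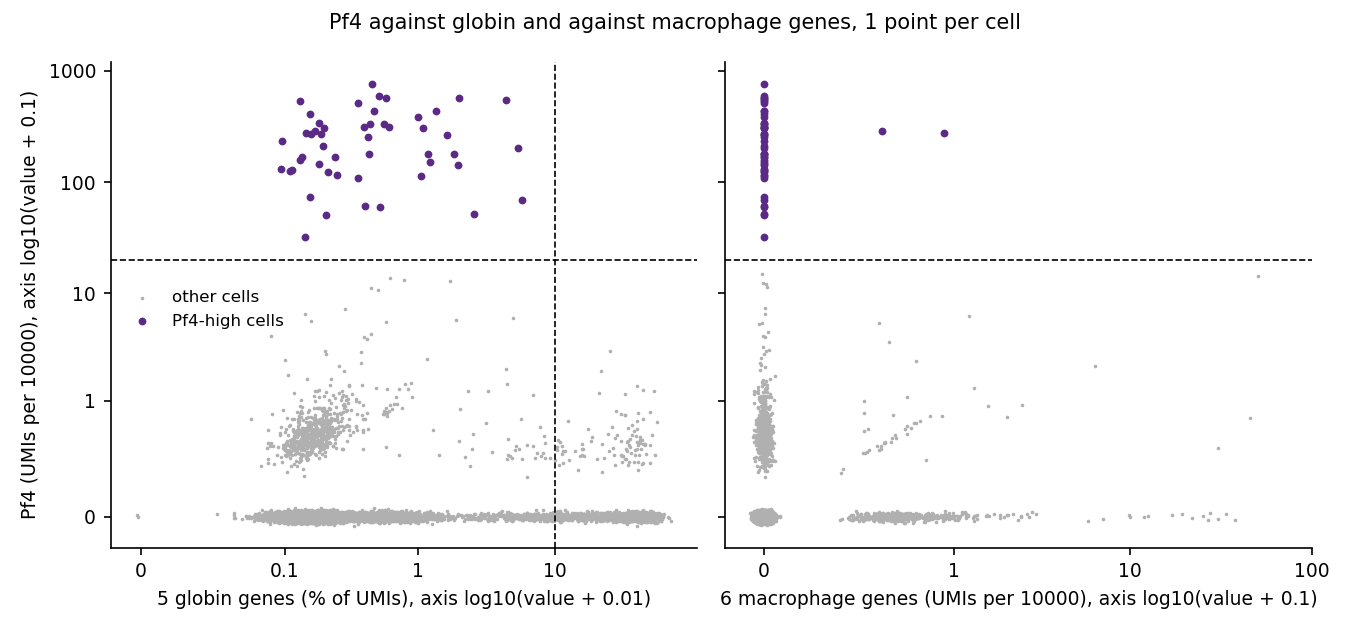
Pf4 in UMIs per 10000 on a log10 scale, 1 point per cell, against the share of the 5 globin genes (left) and against 6 macrophage genes (Csf1r, C1qa, C1qb, C1qc, Tyrobp, Cx3cr1; right), with dashed lines at the limits of 20 and 10%. The 50 Pf4-high cells sit at 32.1 or more, apart from the other cells at 13.7 or less, and 2 of them held any UMI of the macrophage genes.

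The label given to these cells names megakaryocytes and myeloid cells. Markers of the first were present, and most defining markers of the second were at 0. All 12 megakaryocyte markers were detected and 11 of them were found in at least 50% of the cells. Single cells held 8 to 12 of the 12, with a median of 11. Of 16 macrophage markers 8 had no UMI in any of the 50 cells, among them Csf1r, the receptor that macrophages need to survive, the complement genes C1qa, C1qb and C1qc, and Tyrobp, Mrc1 and Adgre1. A further 5 had under 10 UMIs. The 3 found in at least 50% of the cells were Fcer1g, Coro1a and Laptm5. Fcer1g encodes the signalling chain of the platelet collagen receptor as well as of Fc receptors, and Coro1a and Laptm5 act in many blood cells. The 16 markers summed to 351 to 1434 CPM (counts per 1000000 UMIs) by sample. Lyz2, in a wider macrophage list and not among the 16, had 22 UMIs and was found in 26.0% of the cells. Its mean over 7 samples was 26.8 CPM against 0.486 in all other cells. Of 7 neutrophil and mast cell markers 6 had no UMI, Mpo, Elane, Ctsg, Cpa3, S100a8 and Ms4a2, and Prtn3 had 3 UMIs.

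Cells with a macrophage pattern were present elsewhere in the data. Outside the Pf4-high cells 18 cells held 8 or more of the 16 macrophage markers, a limit chosen after seeing the values. Of these, 15 had no Pf4 UMI and 3 had at least 1, the highest at 13.4 per 10000 and the next at 0.704. The 18 comprised 2 cells of E8.5 control samples, 13 of E9.5 controls, 8 of them in Bar9, and 3 of E9.5 mutants. The 6 genes Csf1r, C1qa, C1qb, C1qc, Tyrobp and Cx3cr1 gave a median of 44 UMIs in each of these cells, against 3 UMIs in all 50 Pf4-high cells together. These 6 are among the 16 markers that chose the 18 cells, so their level in those cells is a description. When the Pf4-high cells were clustered without the rule genes, 6 sub-clusters of 5 to 11 cells formed. Each had 11 or 12 of the megakaryocyte markers in at least 25% of its cells and no UMI of Csf1r, the C1q genes or Tyrobp. No sub-cluster could be called macrophage-like, also at resolutions that gave 3 and 9 sub-clusters, so its planned share was not compared. The cells are called Pf4-high, megakaryocyte-like cells below.

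The 250 bases before the RefSeq start site are shown for Pf4 and for 2 subunits of the von Willebrand receptor, Gp5 and Gp9, because the RNA of these genes marked the cells and that of GATA1 and of the ETS factor FLI1 was found beside it. The sequences run 5′ to 3′ along the gene in GRCm38.p6, at chr5:90772185-90772434 on the plus strand for Pf4, chr16:30310782-30311031 on the minus strand for Gp5 and chr6:87777820-87778069 on the plus strand for Gp9. Capitals mark matches to a GATA motif (AGATAA and its variant AGATAG, or TGATAA and its variant TGATAG) or an ETS motif (AGGAAG or CCGGAA) on either strand.
Pf4: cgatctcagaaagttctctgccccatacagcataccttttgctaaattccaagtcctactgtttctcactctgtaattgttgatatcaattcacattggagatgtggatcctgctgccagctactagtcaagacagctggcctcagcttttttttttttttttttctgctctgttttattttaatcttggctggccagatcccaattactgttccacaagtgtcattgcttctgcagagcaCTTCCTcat
Gp5: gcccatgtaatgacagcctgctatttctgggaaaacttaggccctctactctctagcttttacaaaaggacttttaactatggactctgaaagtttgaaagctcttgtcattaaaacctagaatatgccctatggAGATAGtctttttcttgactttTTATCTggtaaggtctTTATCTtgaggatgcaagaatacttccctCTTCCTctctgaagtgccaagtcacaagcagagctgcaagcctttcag
Gp9: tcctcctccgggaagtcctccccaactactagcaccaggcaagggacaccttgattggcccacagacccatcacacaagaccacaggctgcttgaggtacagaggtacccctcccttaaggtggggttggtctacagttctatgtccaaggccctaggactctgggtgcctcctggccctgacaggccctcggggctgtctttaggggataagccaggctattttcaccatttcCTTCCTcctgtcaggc
The Pf4 window held an ETS match that starts 9 bases before the start site and no GATA match. The Gp5 window held GATA matches at 115, 93 and 77 bases and an ETS match at 48 bases before the start. The Gp9 window held an ETS match at 16 bases. Of the 20 leading genes named next, 17 had a RefSeq window. A GATA match was in 6 of the 17 (35.3%) against 27.1% of 27025 promoters of the same length, and an ETS match in 8 (47.1%) against 38.0%. A match is a description of the letters, not of binding.

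Levels are given below in CPM, as the mean ± SD over the 7 samples with at least 3 Pf4-high cells. They stand beside the same samples' globin-high cells (globin at least 10% of UMIs, 1959 cells in all samples) and endothelial cells (outside both, with Cdh5 plus Pecam1 at 4 or more UMIs per 10000, 191 cells). Every gene of the chosen cells counts as used by the rule, so these differences have no test. CPM was taken over all UMIs, globin included, which lowers the CPM of every other gene in globin-high cells. No correction was made for this. The 20 genes with the largest ratio to all other cells were Pf4, Plek, Treml1, Thbs1, Clec1b, Fermt3, Gp5, Rab27b, Gp9, Rasgrp2, Ctla2a, Itgb3, Alox12, Cd9, Rabgap1l, F2rl2, Itga2b, Fcer1g, Ly6g6f and Mrvi1. For each of the 20, the Pf4-high cells lay above the globin-high and the endothelial cells in 7 of 7 samples.

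Most genes of platelet granule cargo were present. Pf4 was at 21707 ± 12176 CPM (SD, n = 7). Tmsb4x, which binds actin monomers, was at 30321 ± 5007 CPM against 131 in globin-high cells and 7397 in endothelial cells. Thbs1, the adhesive granule protein thrombospondin 1, was at 1371 ± 332 CPM. Tgfb1 was at 1008 ± 194 CPM against 198 in endothelial cells, and Clu at 369 ± 161. Vwf, the von Willebrand factor that tethers platelets to a damaged vessel, was at 194 ± 85.5 CPM against 27.7 in endothelial cells. Ppbp, the other platelet chemokine and the neighbour of Pf4 on chromosome 5, was at 159 ± 215 CPM and found in 46.0% of cells, while Pf4 was in every cell. Selp had 3 UMIs in all, Pdgfa 3 and Igf1 none. Of the 19 genes of the granule list 18 had a UMI and 12 stood at least 4-fold above all other cells, beside 3.07% of the 14823 genes with a UMI in the Pf4-high cells. That contrast is the one the cells were chosen on, so nothing is read from it.

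RNA of the platelet receptors was present. Itga2b and Itgb3, which form the fibrinogen receptor, were at 659 ± 239 and 600.0 ± 249 CPM. The von Willebrand receptor genes were at 609 ± 140.3 (Gp5), 514 ± 219.6 (Gp9), 108 ± 49.1 (Gp1ba) and 97.7 ± 47.9 CPM (Gp1bb). Clec1b, the receptor for podoplanin, was at 1060.3 ± 384 CPM and was also found in endothelial cells, at 142. Gp6, the collagen receptor, was at 125 ± 81.0 CPM. Of the thrombin receptors F2r was at 563 ± 93.3, F2rl2 at 451 ± 102 and F2rl3 at 97.5 ± 34.2 CPM. Among receptors for released nucleotides P2rx1 (209 ± 68.1 CPM) and P2ry1 (122 ± 28.8 CPM) were present, and P2ry12 had 4 UMIs in all 50 cells. Enzymes that make platelet lipid mediators were Alox12 (426 ± 336 CPM), Ptgs1 (176 ± 56.5 CPM) and Tbxas1 (66.7 ± 49.3 CPM). Of the 30 genes of this list all had a UMI and 25 were at least 4-fold above the other cells, with a median ratio of 25, against 0.995 over the 14823 genes.

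Signalling and secretion genes that link these receptors to integrin activation were high. Rap1b, the small GTPase of that path, was at 3893 ± 404 CPM against 95.6 in globin-high and 219 in endothelial cells. Its exchange factor Rasgrp2 was at 1426 ± 303 CPM, the integrin activators Fermt3 and Tln1 at 1438 ± 198 and 911 ± 215 CPM, and Plek, a substrate of protein kinase C, at 1125 ± 253 CPM. Rab27b, which moves granules, was at 829 ± 118 CPM. Genes of late platelet assembly were found as well: Tubb1, the tubulin of the platelet ring, was at 70.5 ± 47.2 CPM in 56.0% of cells, and Nbeal2, needed for alpha granules, at 27.4 ± 16.1 CPM.

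Transcription factors divided the cells from both neighbouring lineages. Gata1 was at 174 ± 60.9 CPM, against 88.8 in globin-high and 1.39 in endothelial cells. Gfi1b (212 ± 69.9 CPM) and Tal1 (162 ± 58.5 CPM) were shared with globin-high cells, where they were at 45.1 and 123. Runx1 was at 289 ± 72.6 CPM against 8.42 in globin-high and 1.94 in endothelial cells. Fli1 was at 311 ± 30.9 CPM and Mef2c at 646 ± 234 CPM, and both were shared with endothelial cells (147 and 303) and near absent from globin-high cells (3.01 and 4.28). Erg, an ETS factor related to Fli1, had no UMI in the 50 cells and was at 66.5 CPM in endothelial cells. Gata2 had 5 UMIs, Ikzf1 had 1 and Gfi1 none.

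**Figure D2:**
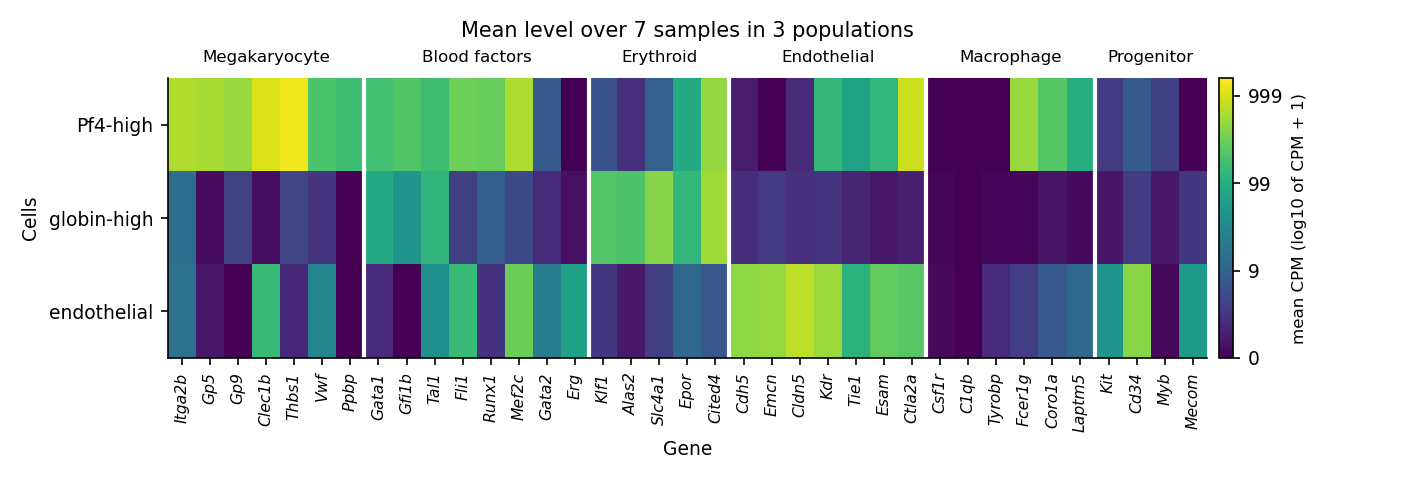
Mean CPM over 7 samples (colour, log10 of CPM + 1) of named genes in Pf4-high, globin-high and endothelial cells. Megakaryocyte genes are high in the Pf4-high row, where Erg, Emcn, Csf1r, C1qb, Tyrobp and Mecom are at 0 and Gata1, Fli1, Kdr and Ctla2a are present.

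Among markers of early blood progenitors, Runx1, described above, was found in 96.0% of cells and Mycn was at 33.5 ± 27.6 CPM. Others were near 0. Kit had 1 UMI, Myb 3, Cd34 9, Cd93 2 and Mecom none in all 50 cells, where 0 UMIs of the cells' total allow up to 3.19 CPM. Slamf1, a receptor of stem cells and megakaryocytes, was at 149.6 ± 83.9 CPM. Red cell genes divided. The red cell factor Klf1 was at 5.35 ± 6.13 CPM against 219.8 in globin-high cells, Alas2 at 1.70 ± 2.95 against 204, and Rhag and Ermap had no UMI. Other genes of the same list had CPM near those of globin-high cells, among them Cited4 at 476 ± 80.6 against 552. The erythropoietin receptor Epor was at 90.0 ± 35.0 against 130.4 CPM. Globin lowers the CPM of other genes in globin-high cells, so near CPM there does not mean near shares of non-globin RNA.

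Endothelial genes divided in the same way. The junction genes Cdh5 and Cldn5 had 1 UMI each, Emcn, Sox18, Ecscr and Stab2 none, and Tek 3. Kdr, the main VEGF receptor, was at 136 ± 40.5 CPM against 517 in endothelial cells, Esam at 129 ± 34.9 against 267, Tie1 at 73.8 ± 36.7 against 111 and Pecam1 at 66.3 ± 40.1 against 245. Ctla2a, a protease inhibitor, was higher than in endothelial cells, at 872 ± 335 against 229.7 CPM. Of the 26 genes of the list 20 had a UMI and 6 none.

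Cell cycle genes were expressed by most of the cells. The 22 G2 and mitosis genes summed to 3768 ± 1425 CPM, against 2780.2 ± 268 in globin-high and 3735 ± 536 in endothelial cells, and all 22 had UMIs. The 20 S phase genes summed to 2059 ± 765 CPM against 1979.8 ± 352 and 2613 ± 356. Of the D cyclins, Ccnd3 was at 133 ± 58.4 CPM against 114 in globin-high and 53.4 in endothelial cells. Ccnd1 was at 8.14 ± 12.2 against 4.80 and 225, and Ccnd2 at 18.1 ± 12.9 against 32.4 and 146, so both lay near globin-high cells and under endothelial cells. Cdkn2d, an inhibitor of the D cyclin kinases, was at 502 ± 179 CPM against 19.3 in globin-high and 39.1 in endothelial cells and was found in every Pf4-high cell. Cdk6 had 1 UMI.

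Wls, the targeted gene, was scarce in these cells in every group. The E8.5 control sample Bar3 held 7 UMIs, or 23.8 CPM with an exact 95% Poisson interval of 9.57 to 49.0. The E9.5 controls held 2 UMIs (8.13 CPM, 0.985 to 29.4) and the E9.5 mutants 0, which allows up to 7.5 CPM. The intervals of the E9.5 groups overlapped, so loss of Wls RNA was not detectable in these cells at this depth. Intervals and limits here and below cover counting error only. The Wnt targets Axin2, Nkd1, Notum, Sp5 and Lef1 had 0, 0, 0, 0 and 1 UMIs in all 50 cells. Of the 27 genes in their list of Wnt receptors, transducers and targets, 18 had a UMI and 6 a mean of at least 10 CPM. The list summed to 299 ± 77.8 CPM against 243 in globin-high and 1141 in endothelial cells. Of the 12 Wnt ligand and secretion genes none had a mean of 10 CPM.

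Pf4-high cells were found at E8.5 and E9.5. No such cell was found at E7.5 in 28 cells, which allows a share of up to 10.7%, or in any of 6 E8.0 samples of 367 to 701 cells, where the limit was 0.428% to 0.817% for each and 0.0937% over their 3202 cells. At E8.5 the control Bar3 held 15 in 2508 cells, 0.598% with an exact 95% binomial interval of 0.335% to 0.985%. The other samples of that stage held none, the control Bar2 in 34 cells and the mutant Bar1 in 487 cells, which allows up to 0.616%. Bar3 therefore supplied all Pf4-high cells of its stage, and its interval overlapped the range left for Bar1. At E9.5 there were 35 cells in 7 of 12 samples.

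The difference between E9.5 and E8.0 lay near the threshold. The mean share over samples of at least 20 cells was 0.346% ± 0.411 (SD, n = 11) at E9.5 and 0% in all 6 samples at E8.0 (exact permutation test over samples, two-sided, p = 0.0526). In run 1, chosen as the within-run comparison and the only run with both stages, 5 of 5 E9.5 samples held Pf4-high cells and 0 of 6 E8.0 samples did, with a difference of 0.574 percentage points (exact permutation test, two-sided, p = 0.00216, the smallest these samples can give). In the controls alone the exact permutation p was 0.375. The E8.0 samples all came from run 1, so the comparison over all runs also compares runs.

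**Figure D3:**
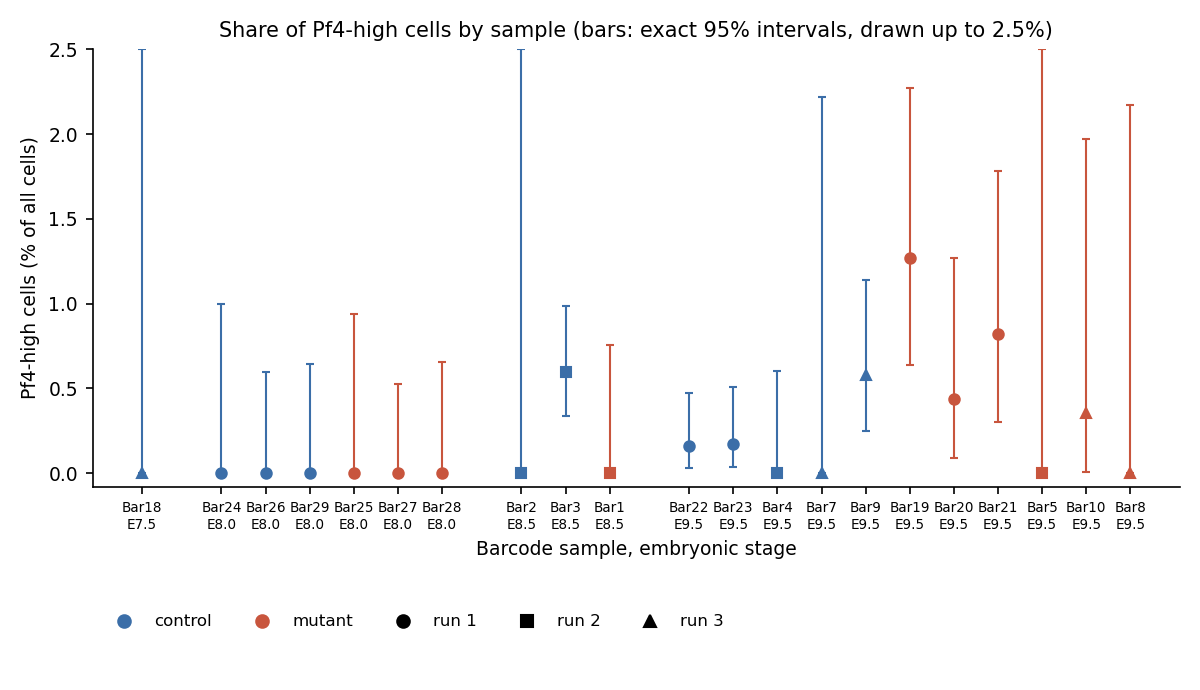
Pf4-high cells as a percentage of all cells in each sample of at least 20 cells, by stage, with exact 95% binomial intervals drawn up to 2.5%. Blue marks controls, red mutants, and the shape gives the run; every E8.0 sample is at 0, and in run 1 at E9.5 the mutants Bar19, Bar20 and Bar21 lie above the controls Bar22 and Bar23.

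The share at E9.5 was higher on average in mutants, by a difference that did not pass the test. In run 1 the controls Bar22 and Bar23 held 0.161% (3 of 1859) and 0.175% (3 of 1719), and the mutants Bar19, Bar20 and Bar21 held 1.27% (11 of 864), 0.437% (3 of 686) and 0.822% (6 of 730). The mutants of this run were all above its controls, although the exact intervals of Bar20 and Bar21 overlapped those of both controls and only that of Bar19 was clear of them. In run 3 the control Bar9 held 0.581% (8 of 1377), the mutant Bar10 0.357% (1 of 280), and the control Bar7 (164 cells) and the mutant Bar8 (168 cells) none. The mean of run 3 was 0.290% in controls and 0.179% in mutants, the opposite order to run 1. In run 2 neither the control Bar4 (608 cells) nor the mutant Bar5 (57 cells) held one. Over all runs the mean share was 0.482% ± 0.495 (SD, n = 6) in mutants and 0.183% ± 0.238 (SD, n = 5) in controls, a difference of 0.298 percentage points (exact permutation within runs, two-sided, p = 0.183). In run 1 alone the difference was 0.676 points (exact permutation p = 0.200), and 3 samples against 2 cannot give less than 0.10. Without Bar19 the difference fell to 0.140 points (exact permutation p = 0.389). Over all stages it was 0.137 points (exact permutation within stage and run, p = 0.311), with 0.0281 points without Bar19 and 0.0782 points without Bar21.

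Counted against red cells the pattern in run 1 was the same. There were 5.98, 3.90 and 4.62 Pf4-high cells per 100 globin-high cells in Bar19, Bar20 and Bar21, against 1.84 and 2.05 in Bar22 and Bar23. Bar9 lay between at 2.84, and Bar10 was at 2.86. The controls Bar4 and Bar7 had none beside 165 and 67 globin-high cells, and the mutants Bar5 and Bar8 none beside 18 and 15. This ratio was chosen after seeing the data. It averaged 2.89 in 6 mutants and 1.35 in 5 controls, a difference of 1.54 that did not pass (exact permutation within runs, two-sided, p = 0.150). A minimum of 20 globin-high cells removes Bar5 and Bar8, both at 0, and gives 2.99 (exact permutation p = 0.0333), so that p rests on leaving out these mutants.

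Within Pf4-high cells, mutants were compared with controls at E9.5 on UMIs summed per sample. Only Bar19 had the 10 cells intended as a minimum, so samples with at least 3 cells entered, a limit set after the cells had been counted: the controls Bar22, Bar23 and Bar9 (3, 3 and 8 cells) and the mutants Bar19, Bar20 and Bar21 (11, 3 and 6 cells). With run as a term Bar9, the only such sample of run 3, carries no weight in the difference. Of 1674 genes tested with edgeR's quasi-likelihood test none had a Benjamini-Hochberg adjusted p of 0.05 or less (0%), and 158 (9.44%) had an unadjusted p under 0.05, 96 higher and 62 lower in mutants. DESeq2 on the same samples called 1 gene, Ppbp, which could pass the filter on low counts only through the mutants, where it was high. The rule genes were left out.

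The smallest p belonged to Ppbp, which sits beside Pf4. It was at 0, 0 and 51.3 CPM in the controls Bar22, Bar23 and Bar9, with 0, 0 and 5 UMIs, and at 221, 191 and 604 CPM in the mutants Bar19, Bar20 and Bar21, with 43, 10 and 85 UMIs. All 3 mutants were above all 3 controls, which held for 5.26% of the tested genes, and all 3 were below all 3 controls for 7.23%. In Bar21 a single cell gave 55 of the 85 UMIs. Against the run 1 controls, whose 148595 UMIs held none, the level in the mutants was at least 17.6-fold higher, taking 3 UMIs over that group as the floor. The edgeR adjusted p was 0.0959, so the gene did not pass, and over the alternatives in which it was tested it ranged from 1.50e-12 to 0.767. Ppbp was found in 8 of 11, 2 of 3 and 5 of 6 cells of the mutants and in 0 of 3, 0 of 3 and 2 of 8 of the controls. Pooled over samples and runs, it was seen in 71.4% of the 21 mutant cells of E9.5 and in 14.3% of the 14 controls. Median depths were 19222 and 17772 UMIs. When every cell was thinned to 5000 UMIs the percentages became 38.1% and 7.14%. Cells of 1 sample are not replicates, and Bar9 of run 3 gave 8 of the 14 control cells, so these percentages are a description with no test. Globin-high cells, with a median of 27247 UMIs, held a Ppbp UMI in 0.102% of cells. In the E8.5 control Bar3 it was at 47.6 CPM, in 6 of 15 cells.

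The other 9 genes with the smallest p did not pass either (edgeR adjusted p 0.178 to 0.441). Tpm1, an actin-binding tropomyosin, was at 388, 351 and 667 CPM in the controls Bar22, Bar23 and Bar9 and at 842, 706 and 824 in the mutants Bar19, Bar20 and Bar21. Pim1, a survival kinase, was at 103, 126 and 103 CPM in controls and 303, 267 and 269.9 in mutants. Alkbh5, an RNA demethylase, was at 51.7, 42.1 and 144 against 211, 153 and 178 CPM. The groups of these 3 genes did not overlap. Like Ppbp, Pim1 and Alkbh5 could pass the filter on low counts only through the mutants, where they were high, so nothing is read from their rank. Ctla2a and the lysosomal Hexa had log2 differences of 1.17 (SE 0.28) and 1.60 (SE 0.38), with groups that overlapped through Bar9. With no run term, where Bar9 counts, the differences were 0.61 and 1.06.

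Of the genes with lower values in mutants, Hmgb2, a chromatin protein of dividing cells, was at 1513, 1347 and 1099 CPM in the controls and 498, 840 and 582 in the mutants, a log2 difference of -1.16 (SE 0.23, edgeR adjusted p = 0.178). The splicing factor gene Hnrnpm was at 362, 421 and 339 CPM against 154, 191 and 135, and the zinc finger gene Zfp131 at 983, 912 and 616 against 503, 382 and 426. The groups of these 3 genes did not overlap. Rrm2, which makes DNA precursors, was at 233, 295 and 82.1 against 92.4, 115 and 56.8 CPM, so the control Bar9 lay among the mutants.

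**Figure D4:**
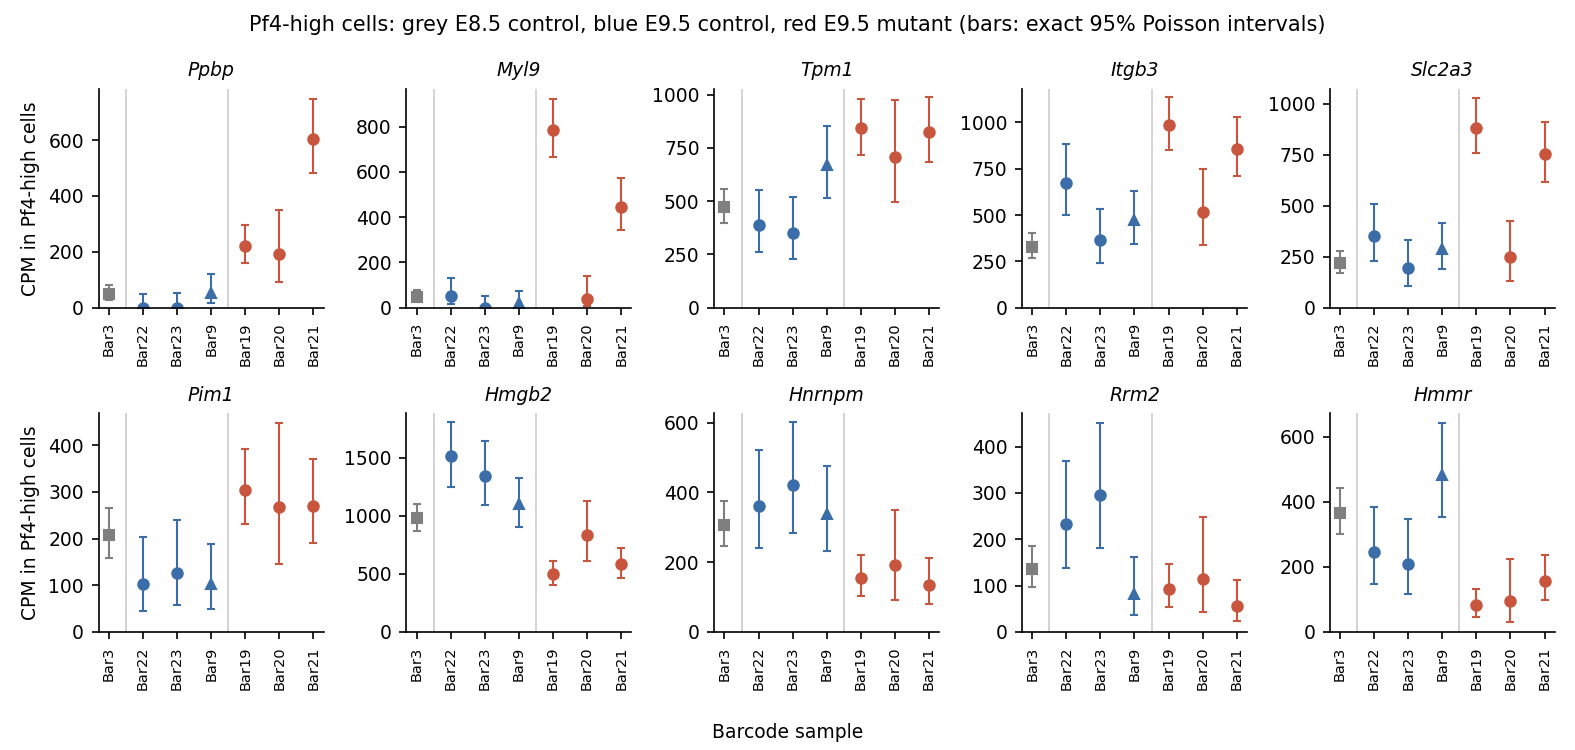
CPM in Pf4-high cells of 10 genes, 1 point per sample with at least 3 such cells, with exact 95% Poisson intervals; grey marks the E8.5 control, blue E9.5 controls and red E9.5 mutants. Ppbp, Tpm1, Pim1, Hmgb2, Hnrnpm and Hmmr have mutant and control points at E9.5 that do not overlap, and none passed over the 6 samples. Of all tested genes 5.26% had the 3 mutants above the 3 controls, and 7.23% had them below. Hmmr was not among the 10 smallest p (edgeR adjusted p = 0.529). It could pass the filter on low counts only through the controls, where it was high, and Ppbp and Pim1 only through the mutants. Myl9 and Slc2a3 are high in Bar19 and Bar21 and not in Bar20.

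The result rested on the mutant sample Bar20. Without it, edgeR passed 102 of 2097 genes (4.86%), 64 higher (3.05%) and 38 lower (1.81%) in the mutants Bar19 and Bar21, while leaving out any other sample in turn gave 0. Bar20 held 3 cells and 52384 UMIs, the fewest UMIs of the 6 samples. Its lowest cell, at 32.1 Pf4 UMIs per 10000, is also the lowest of the 50, and a Pf4 limit of 40 removes it, drops Bar20 under 3 cells and gives the same 102 genes. The values that follow therefore describe Bar19 and Bar21 against Bar22 and Bar23.

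The filter on low counts let more genes in once Bar20 was left out, some of them only through the samples where they were high, so the lists are counted over the 1674 genes tested both with and without Bar20. Of these, 55 (3.29%) were higher and 36 (2.15%) lower. Some genes of both tests still entered the fit without Bar20 only through the samples where they were high. In the surface and signalling list 8 of 21 genes passed, all higher: Itga2b, Itgb3, Gp9, Clec1b, Treml1, Plek, Cd9 and Alox12. Gp9 was at 786 and 866 CPM in Bar19 and Bar21 against 427 and 351 in Bar22 and Bar23 (log2 difference 1.16, SE 0.23), and at 305 in Bar20. Alox12 was at 693 and 1037 against 414 and 196 CPM, and at 38.2 in Bar20. Pf4, the rule gene, was at 37439.9 and 34498 CPM in Bar19 and Bar21, against 9184 and 8991 in Bar22 and Bar23. In Bar20 Pf4 was at 11301 CPM. Over the 26 cells of run 1 the Spearman rho of Pf4 was 0.69 with Treml1, 0.71 with Clec1b, 0.71 with Gp9 and 0.69 with Itgb3. Over all 50 cells they were 0.53, 0.51, 0.48 and 0.41, and within the E8.5 control Bar3 0.11, -0.26, 0.26 and 0.12. The part of Pf4 level in the passing genes was not tested. Of the cytoskeleton list 4 of 10 passed, all higher: Tmsb4x, Flna, Myh9 and Actn1. Myl9, the regulatory light chain of contractile myosin, could be tested only without Bar20 and through the samples where it was high, so its pass is not counted. It was at 786 and 447 CPM (153 and 63 UMIs) in Bar19 and Bar21 against 51.7 and 0 (4 and 0 UMIs) in Bar22 and Bar23, and at 38.2 in Bar20. In Bar19 11 of 11 cells held a Myl9 UMI. Of 8 granule genes Thbs1 passed as higher, and Ppbp, which could enter only through the mutants, is not counted. In the full 6 samples the median log2 difference was 0.55 over 21 surface genes and 0.42 over 10 cytoskeleton genes, against 0.00 over all genes tested, and no gene of either list passed.

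Some genes for glucose use passed as higher and some of DNA synthesis as lower in the same samples. In the low oxygen and glycolysis list 4 of 8 genes passed, all higher against 3.29% of all: the glucose transporter Slc2a3 and the enzymes Pgk1, Pgam1 and Eno1. Slc2a3 was at 883 and 753 CPM against 349 and 196, and at 248 in Bar20. In the S phase list 4 of 9 passed, Rrm2, Pcna, Slbp and Mcm5, all lower against 2.15% of all. Without Bar20, Rrm2 and Mcm5 could pass the filter on low counts only through the controls, where they were high. Nothing is read from the passes of Rrm2 and Mcm5. Mcm5 was at 82.2 and 49.7 against 259 and 210.4 CPM, and at 210.0 in Bar20. The whole S phase list summed to 1469 and 973 against 2509.5 and 3002 CPM. It was at 2768 in the mutant Bar20 and 1458 in the control Bar9, so the groups overlapped. Cdk4 was lower as well, at 139 and 92.3 against 349 and 393 CPM, and at 267 in Bar20. Nolc1, a nucleolar protein gene and 1 of the 10 largest decreases, was at 51.4 and 42.6 against 207 and 210.4 CPM, and at 267 in Bar20. Cdk4 and Nolc1 too could pass the filter without Bar20 only through the controls, so nothing is read from their passes. No gene of the G2 and mitosis list passed in 14 tested. In the full 6 samples 11 of the 14 had lower and 3 higher values in mutants. For 5 of them all 3 mutants were below all 3 controls, against 7.23% of all genes tested. Mef2c was the only 1 of 14 transcription factors to pass, at 359.5 and 483 against 867 and 912 CPM, and at 859 in Bar20. Gata1 and Fli1 had edgeR adjusted p of 0.355 and 0.709. Fcer1g and Coro1a passed from the macrophage list, and Csf1r, C1qa, C1qb, C1qc and Tyrobp were at 0 UMIs in all samples.

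Some of the passing genes came from single cells or from near-identical copies. Actc1, cardiac actin, was at 508 and 319.6 CPM in Bar19 and Bar21, where 1 cell gave 95 of 99 UMIs and another 39 of 45, and in the control Bar9 1 cell gave 34 of 37. Rps13-ps1, a processed pseudogene that could also be tested only without Bar20, was at 134 and 170.4 CPM in Bar19 and Bar21, at 173 in the E8.5 control Bar3 and at 0 in Bar22, Bar23, Bar9 and Bar20, so its level divided samples across genotypes. How reads were shared between copies is uncertain.

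A subset of mutant cells held almost no mitotic RNA. The 22 G2 and mitosis genes gave under 6 UMIs per 10000 in 9 of the 50 cells, 6 of 11 in Bar19 and 3 of 6 in Bar21, and in none of the 15 E8.5 control cells or the 14 E9.5 control cells. The E9.5 control cells ranged from 20.8 to 97.9 (median 50.5), the E8.5 control cells from 6.96 to 102 (median 24.7) and the E9.5 mutant cells from 0.721 to 96.1 (median 10.2). In the 3 cells of Bar20 the range was 12.7 to 43.6. These group medians pool runs. The run 1 controls Bar22 and Bar23, with 3 cells each, had medians of 25.1 and 26.2, and the 8 cells of Bar9 in run 3 had 56.5. The run 1 mutants Bar19, Bar20 and Bar21 had 5.16, 31.7 and 6.60, so Bar20 lay above both controls of its run. The limit of 6 was chosen after seeing the values, and cells of 1 sample are not replicates. By sample the list summed to 3674, 3745 and 6079 CPM in Bar22, Bar23 and Bar9 and to 1608, 2729.8 and 3728 CPM in Bar19, Bar20 and Bar21, so the groups overlapped.

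Within Bar19 the Myl9 values of the cells low in mitotic RNA overlapped those of the rest. The 6 low cells held 1.56, 1.64, 4.76, 14.2, 15.9 and 22.8 Myl9 UMIs per 10000 and the other 5 held 2.73 to 13.2, so the low cells had both the lowest and the highest values. In Bar21 the 3 low cells held 3.47, 9.37 and 12.6 and the other 3 held 0, 1.83 and 2.64, which did not overlap. Itgb3 overlapped in both samples, with medians of 12.9 against 6.89 in Bar19 and 8.70 against 7.18 in Bar21. For Pf4, a rule gene, they were 461 against 272 in Bar19 and 278 against 272 in Bar21. The median depth of the low cells was 15938 UMIs against 19673 in Bar19 and 22986 against 26477 in Bar21. The mitotic sum had a Spearman rho with depth of 0.19 over all 50 cells, 0.53 over the 26 cells of run 1 and 0.71 in Bar3. The part of depth was not tested. Over all 50 cells the rho of Myl9 was 0.65 with Itgb3, 0.65 with Alox12, 0.69 with Flna and -0.47 with the mitotic sum. Bar3, a single control sample, held only 14 Myl9 UMIs, in 6 of its 15 cells. Within these 15 cells the same values were 0.56, 0.46, 0.42 and -0.48. These are descriptions of cells that share libraries, with no test.

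**Figure D5:**
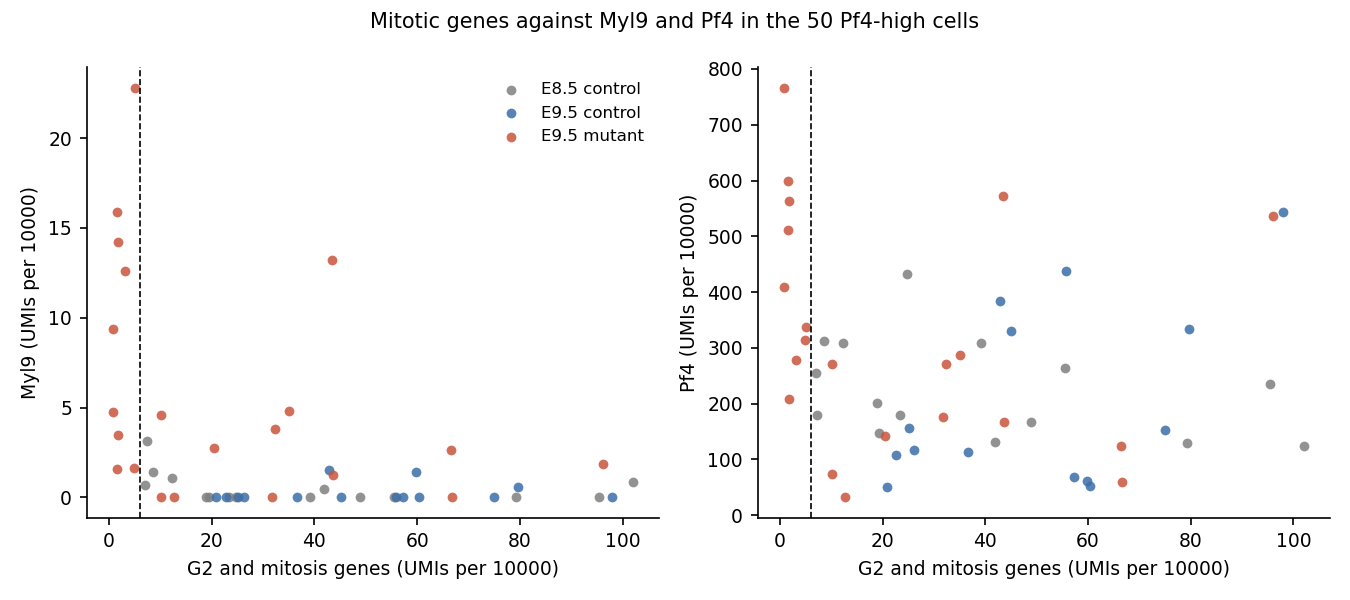
Each of the 50 Pf4-high cells by its sum of 22 G2 and mitosis genes (UMIs per 10000) against Myl9 (left) and Pf4 (right); grey marks E8.5 control, blue E9.5 control and red E9.5 mutant cells, and the dashed line is at 6. The 9 cells left of the line are all mutant, and the E9.5 control cells lie at 20.8 or above.

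Stage could be described but not tested within the cells, since Bar3 was the only E8.5 sample with any of them and its run held no Pf4-high cell at E9.5. Stage and run therefore cannot be told apart. Receptor genes of the megakaryocyte list were found at both stages: Itga2b was at 591 CPM in Bar3 against 517, 575 and 513 in Bar22, Bar23 and Bar9. Clec1b was at 1118 against 479, 1024 and 1212 CPM, and Thbs1 at 993 against 1125, 1333 and 1366. Of 1991 genes with at least 50 UMIs in these 4 samples, 4 (0.201%) were at least 3-fold higher in Bar3 and above each E9.5 control, and 10 (0.502%) at least 3-fold lower and below each, a size rule set after seeing the data. None of 19 surface and signalling genes and none of 13 blood transcription factors was among them. The median log2 ratio of E8.5 to E9.5 was 0.00 over the 19 and -0.18 over the 13, against 0.06 over all 1991.

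The genes past that size were few. Higher at E8.5 were the globin genes Hbb-bs (299 CPM against 12.9, 0 and 71.9) and Hbb-bh0 (231 against 0, 28.1 and 10.3), which are not rule genes, and the ribosomal genes Rps3a1 and Rps13-ps1. Rps3a1 was at 1781 CPM in Bar3 and at 1166 in the E9.5 mutant Bar19, but at 25.9 to 84.2 in the other 5 samples. Lower at E8.5 was Egr1, an early response factor, at 109 CPM (exact 95% Poisson interval 74.4 to 154) against 298, 477 and 483, and Actc1 at 17.0 against 90.6, 84.2 and 379.9. The others were Gm8730, CT010467.1, A430010J10Rik, Dct, Rpl34, Rpl29, mt-Atp8 and Zfp131. Slamf1, with too few UMIs for the rule, was at 20.4 CPM (6 UMIs) in Bar3 against 77.6, 112 and 195 in the E9.5 controls and 169, 210 and 263 in the mutants.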

How the data were processed

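The values were UMI counts per gene and cell from 10x Chromium v3 libraries, deposited by the authors as a sparse matrix of 51923 genes and 14777 cells with a table of run, barcode, stage and genotype. The submitters' processing notes name kallisto, bustools 0.46.1, Cell Ranger and GRCm38, and the labels say that MULTI-seq barcodes were demultiplexed. The dense form of the matrix was not used. Counts were taken as deposited, with no further filter on cells. The members and gene lists were chosen with earlier results of these data known.

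CPM is a gene's UMIs per 1000000 UMIs summed over the cells of a sample. Shares were compared with exact two-sided permutation tests over samples of at least 20 cells. Summed counts were compared with edgeR 4.0.16 (filterByExpr, TMM, quasi-likelihood test, run as a term, Benjamini-Hochberg at 0.05), with DESeq2 1.42.0 as an alternative, in R 4.3.3. The edgeR step was tested on simulated data. Standard errors are the log2 difference divided by the root of the F statistic. Intervals are exact (Clopper-Pearson, Poisson) at 95%, and the limit for a count of 0 is 3 counts. Ratios between cell populations had 5 CPM added to both sides. Sub-clusters came from Leiden clustering (scanpy 1.11.5) at resolution 1, without the rule genes, and doublets from Scrublet per run.

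Named genes were those with an adjusted p of 0.05 or less and at least 20 CPM, up to 10 in each direction, and, where fewer than 6 passed, the 10 smallest p; in the description, the 20 largest ratios found in at least 25% of the cells and up to 8 of each list. Genes named outside these rules were named for their list or after their values were seen. The intended minimum of 10 cells a sample left 2 samples, so 3 cells were used for genotype, and the stage and macrophage-share tests could not be made. Alternatives covered the Pf4 and globin limits, cell minimums, denominators, normalization, filters, run terms and leaving out each sample. Some genes are not reported here.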

Additional observations from a re-analysis of the deposited data

How the results depend on the processing

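The difference in share between mutants and controls kept its direction under the alternatives tried, although within run 3 it was the opposite. At E9.5 it ranged from 0.140 to 0.398 percentage points when 1 sample was left out (exact permutation p from 0.10 to 0.389), and per 100 globin-high cells it was 1.54 (exact permutation p = 0.150), or 2.99 (p = 0.0333) where a minimum of 20 globin-high cells removed the mutants Bar5 and Bar8, both at 0. Over all stages it ranged from 0.0281 to 0.187 points with 1 sample left out. In samples of at least 500 cells the differences were 0.615 points at E9.5 and 0.290 over all stages. The difference between E9.5 and E8.0 was 0.253 to 0.381 points with 1 sample left out and passed without Bar4, Bar5, Bar7 or Bar8 in turn (exact permutation p = 0.0348), with Pf4 at 10 or more per 10000 (0.362 points, exact permutation p = 0.0453) and in run 1 alone (0.574 points).

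For genotype within Pf4-high cells, leaving out 1 sample gave 0 to 102 genes, and the 102 came without Bar20. DESeq2 gave 1 gene, no filter on low counts 18 of 13884 tested, a Pf4 limit of 10 gave 1 and of 40 gave 102, and all stages with stage as a block gave 1. DESeq2 size factors, no run term, run 1 alone, at least 1 cell a sample and leaving out called doublets gave 0. Minimums of 5, 10 and 20 cells could not be fitted with a run term, because genotype and run coincide or samples are lacking. The stage test and its alternatives were not run, since 1 E8.5 sample held these cells, and the macrophage-like share and its alternatives were not run, since no sub-cluster took that name. No paired analysis was possible because barcodes give samples no shared replicate numbers across genotypes. With 3 to 11 cells a sample at E9.5, single cells can set a gene's value.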
